A study of Heterocephalus glaber with 215 samples.

Results

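Ovary was compared with testis in naked mole-rats (Heterocephalus glaber) that had not bred. The 12 libraries were chosen by tissue, sex and breeding status, with no measured value: ovary of 6 female non-breeders (NF) and testis of 6 male non-breeders (NM), out of 215 RNA-seq libraries of 10 tissues. The NF animals were 2.4 to 4 years old and the NM animals 2.7 to 4.1 years old. All 12 were workers that stayed in the 2 long-standing captive colonies they were born into, as litter mates of animals that were taken out and paired. Those paired animals are the breeders, and their gonads (5 ovaries of female breeders, BF, at 3.3 to 3.7 years, and 6 testes of male breeders, BM, at 2.8 to 4.1 years) served as the same comparison in other animals. BM testis was collected after the male had been removed from its partner, and BF ovary weeks after the end of a pregnancy. Each library is one tissue of one animal, so an ovary and a testis never share an animal. RNA of whole gonads was sequenced, so sex and tissue cannot be told apart, and fewer cells of a type cannot be told apart from less RNA per cell.

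Ovary and testis grow from a shared primordium. Its supporting cells become granulosa cells, which surround each oocyte in a follicle, or Sertoli cells, which line the seminiferous tubule and nurse the male germ cells. Steroids come from neighbouring theca cells in the ovary and Leydig cells in the testis, which turn cholesterol into androgens that granulosa cells can convert to estrogens. In mammals such as the mouse, female germ cells enter meiosis early in life and wait as oocytes. The timing in naked mole-rat females was not examined here. Spermatogonia keep entering meiosis in the adult and go on through spermatocytes and spermatids to sperm. In naked mole-rat colonies the queen breeds and the subordinate females do not ovulate, so that the ovaries studied here were those of reproductively suppressed animals.

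The totals of the 12 libraries ran from 10369535 to 18167855 reads counted on 16339 genes. The ovaries had mean correlations of 0.9522 to 0.9728 with one another on the log2 scale, and the testes of 0.9744 to 0.9867. On the first principal component, which held 79.9% of the variance, all ovaries lay on one side and all testes on the other. The labels were checked with a defining gene of each supporting cell. FOXL2, the transcription factor that maintains granulosa cells, had a lowest, median and highest level of 84.0, 90.5 and 100.03 CPM (reads of the gene per 1e+06 reads of the library) in the ovaries and 4.36, 5.06 and 8.27 CPM in the testes. DMRT1, the transcription factor that maintains Sertoli cells, had 0.249, 0.352 and 0.676 CPM in the ovaries and 79.2, 90.2 and 134 CPM in the testes. Neither gene overlapped between the groups, so every library carried the marker of its label.

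The ovaries of NF_3439 and NF_4060 stood apart from the other 4. On the second principal component (7.88% of the variance) they lay at -54.35 and -41.4, against 9.858 to 32.21 for the other ovaries. Genes of ciliated and tubal epithelium were high in both. FOXJ1, the master regulator of motile cilia, was at 81.1 and 53.9 CPM in NF_3439 and NF_4060 and at no more than 4.77 CPM in the other ovaries, and PAX8, a transcription factor of the oviduct epithelium, was at 34.7 and 32.4 CPM against at most 1.66 CPM. The 9 oviduct and uterus markers in the table summed to 87.7 and 110.5 CPM in these 2 libraries, to 2.99 to 5.76 CPM in the other ovaries and to 16.4 to 23.3 CPM in the testes. The gene that the table names OVGP1, the symbol of oviductin, a product of the secretory cells of the oviduct, had 0 reads in all 6 ovaries and 952 in the testes, and the identity of the transcript behind that symbol was not checked. Whether tissue next to the ovary was collected with these 2 samples was not tested, and the difference without them is given for each gene whose call between non-breeder gonads changed or whose fold moved by over 1.5 times.

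Ovary and testis differed in most genes. Of 14470 genes tested with edgeR's quasi-likelihood test, 55.8% (8075) differed at a Benjamini-Hochberg adjusted p below 0.01, which is what "called" means in all that follows. Higher in the ovary were 28.5% of the genes tested and higher in the testis 27.3% (3954), and for 44.7% of all genes tested no ovary library overlapped a testis library. Large differences were less even. A difference of more than 4-fold was called for 1988 genes (13.7%), of which 622 were higher in the ovary (4.3%) and 1366 in the testis (9.44%). Scaling by the total count alone in place of trimmed means moved the median log2 difference of all genes from 0.055 to -0.072 and the split of the calls to 3331 higher in the ovary and 4508 higher in the testis.

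**Figure D1:**
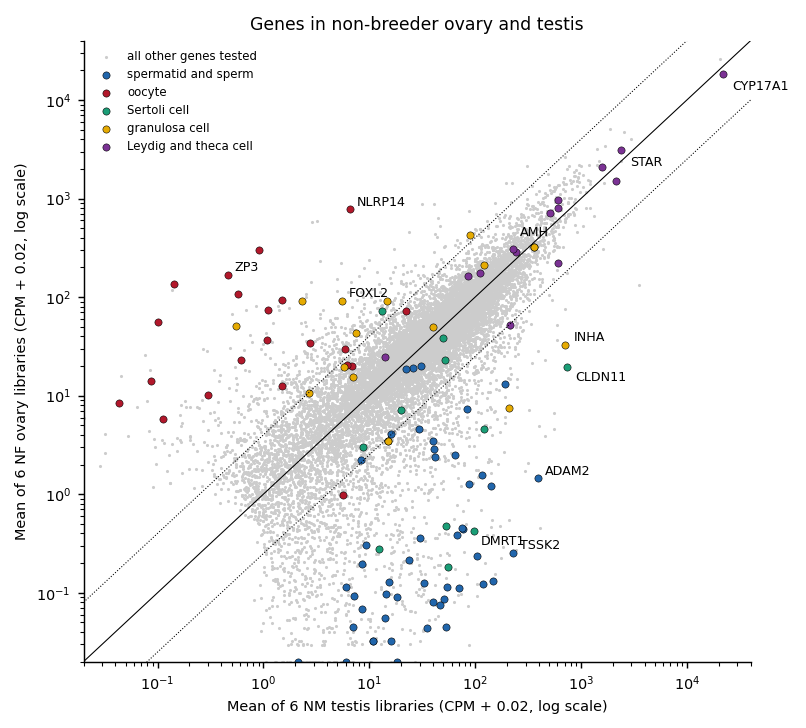
Mean level of each tested gene in the 6 NM testes (x axis) and the 6 NF ovaries (y axis), both in CPM plus 0.02 on a log scale. The solid line marks equal levels and the dotted lines a 4-fold difference, and colours mark genes of 5 lists. Spermatid and sperm genes lie far below the lines and oocyte genes far above them, while STAR, CYP17A1 and AMH lie near the line of equal levels.

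Genes higher in the testis by 4-fold took 6.96% of the testis reads and 0.647% of the ovary reads, and those higher in the ovary by 4-fold took 4.47% of the ovary reads and 0.655% of the testis reads. In both gonads CYP17A1, the enzyme that makes androgens from progestins, was among the most counted genes, with 1.75% of the ovary reads and 2.39% of the testis reads. For 45 of the 1366 genes the 6 ovaries together held 0 reads, whereas only SYT8 of the 622 had 0 reads in the testes. Log2 fold changes below are ovary minus testis with their standard error.

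Supporting cells carried the genes of their own sex, with exceptions. Of 15 granulosa cell genes tested, 9 were called higher in the ovary and 3 higher in the testis, with a median log2 difference of 1.78 beside 0.055 over all genes. Of 13 Sertoli cell genes, 10 were called higher in the testis and 1 in the ovary, with a median of -2.09. FST, whose product follistatin binds activin, stood at 60.0, 84.6 and 138 CPM in the ovaries and 1.08, 1.45 and 6.36 CPM in the testes (log2 fold change 5.31 ± 0.43, adjusted p = 2.07e-07). IHH, the hedgehog ligand that granulosa cells send to theca cells, had 22.9, 51.3 and 76.5 CPM against 0.316, 0.492 and 0.782 CPM (6.61 ± 0.33, adjusted p = 2.01e-09). FOXL2 differed by 4.08 ± 0.15, adjusted p = 1.96e-10. The lowest ovary exceeded the highest testis for each of these genes.

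HSD17B1, the enzyme that turns estrone into estradiol, measured 76.5, 89.7 and 118 CPM in the ovaries and 12.4, 13.96 and 18.5 CPM in the testes (2.66 ± 0.13, adjusted p = 1.71e-09). SERPINE2, a secreted protease inhibitor and the most abundant granulosa gene higher in the ovary, had 253, 427 and 647 CPM against 66.6, 89.4 and 111 CPM (2.28 ± 0.20, adjusted p = 4.19e-07). Both sets of libraries were apart. CYP19A1, the aromatase that makes estrogens, was not tested because its reads were too few: 1 read in the 6 ovaries and 3 in the 6 testes. Aromatase was therefore not detectable above background in either non-breeder gonad at this depth, while the 5 BF ovaries averaged 86.5 CPM. They were uneven, from 1.66 CPM in BF_6841 to 152.5 CPM in BF_1090.

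The 3 granulosa list genes called higher in the testis were INHA, GATM and FSHR. INHA encodes the alpha subunit of the inhibins, which lower follicle-stimulating hormone, and had 25.4, 32.8 and 40.3 CPM in the ovaries and 530.3, 656 and 1086 CPM in the testes (-4.40 ± 0.21, adjusted p = 1.51e-09). GATM, the first enzyme of creatine synthesis, had 5.74, 7.11 and 9.33 CPM and 169, 205 and 280.4 CPM (-4.81 ± 0.16, adjusted p = 1.1e-10). FSHR, the receptor of follicle-stimulating hormone in granulosa and Sertoli cells, had 2.24, 2.99 and 5.28 CPM and 9.62, 13.2 and 22.5 CPM (-2.09 ± 0.29, adjusted p = 2.33e-05). In all 3 the highest ovary lay below the lowest testis.

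Among the Sertoli cell genes, SOX9, which sets Sertoli fate, was at 1.51, 3.44 and 10.6 CPM in the ovaries and 97.1, 107 and 188 CPM in the testes (-4.70 ± 0.44, adjusted p = 9.2e-07, and -5.61 without NF_3439 and NF_4060). The 2 highest ovary levels of SOX9 were those of NF_3439 and NF_4060, at 10.6 and 6.62 CPM. CLDN11, the claudin of the tight junctions between Sertoli cells, had 9.94, 19.9 and 27.8 CPM and 603, 664 and 1021 CPM (-5.19 ± 0.25, adjusted p = 1.51e-09) and was the most abundant gene called on that list. DMRT1 differed by -7.81 ± 0.24, adjusted p = 9.69e-11. EPPIN, a protease inhibitor that coats sperm, differed by -8.32 ± 0.31, adjusted p = 1.71e-10, and DEFB119, a beta-defensin, by -6.89 ± 0.40, adjusted p = 6.74e-09. None of these genes overlapped between ovaries and testes.

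SHBG, which in rodents encodes the androgen-binding protein of Sertoli cells, had 0.123, 0.257 and 0.436 CPM in the ovaries and 9.87, 11.2 and 16.9 CPM in the testes (-5.56 ± 0.29, adjusted p = 2.89e-09). The list gene that went the other way was TSPAN7, a membrane protein of the tetraspanin family, with 53.4, 74.1 and 83.8 CPM against 11.1, 12.54 and 16.1 CPM (2.47 ± 0.15, adjusted p = 8.48e-09). AMH, the hormone that makes the Müllerian ducts regress and that both supporting cell types secrete, was at 239, 306 and 415 CPM in the ovaries and 238, 316 and 618 CPM in the testes, and the groups overlapped (-0.12 ± 0.23, adjusted p = 0.648). Its sign turned to 0.11 without NM_0713, the testis with the highest AMH, SOX9 and INHA levels. WT1, a transcription factor of the early gonad, likewise overlapped with 55.2, 99.2 and 142 CPM and 89.1, 93.8 and 202 CPM (-0.15 ± 0.26, adjusted p = 0.634, and 0.10 without NM_0713).

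**Figure D2:**
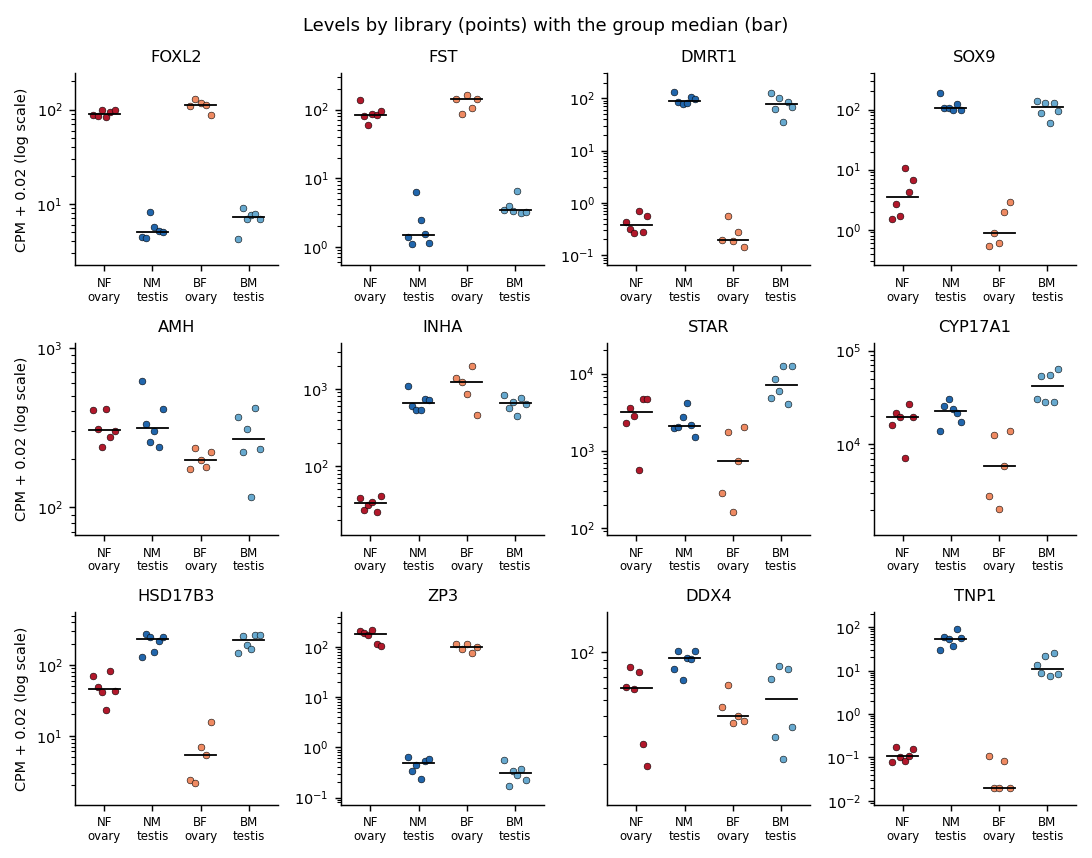
Level of 12 genes in each gonad library, in CPM plus 0.02 on a log scale, with one point per library and a bar at the group median, for NF ovary (6), NM testis (6), BF ovary (5) and BM testis (6). FOXL2, FST and ZP3 were higher in every ovary and DMRT1, SOX9 and TNP1 in every testis, whereas AMH, STAR, CYP17A1 and DDX4 overlapped between NF ovary and NM testis.

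The genes that direct the early gonad towards ovary or testis were called in both directions. Of 21 tested, 8 were called higher in the ovary and 6 higher in the testis (66.7% together, beside 55.8% of all genes), and 7 were not called. WNT4, the signal that opposes testis development, had 51.5, 59.8 and 77.9 CPM in the ovaries and 4.20, 4.62 and 7.21 CPM in the testes (3.64 ± 0.16, adjusted p = 7.36e-10). RUNX1, which acts beside FOXL2 in granulosa cells of the mouse, had 5.48, 6.19 and 8.99 CPM and 0.174, 0.634 and 0.861 CPM (3.42 ± 0.28, adjusted p = 1.7e-07). NR2F2, a nuclear receptor of interstitial cells, had 60.3, 119 and 173 CPM and 40.7, 56.4 and 80.9 CPM (1.08 ± 0.23, adjusted p = 0.000953), with some overlap of libraries. ZNRF3, which dampens WNT signalling and promotes testis development in the mouse, was called higher in the testis with a log2 fold change of -0.54. GADD45G, which promotes testis development in the mouse, had the higher median in the ovary, at 33.6, 60.9 and 69.1 CPM against 15.4, 22.4 and 54.0 CPM with overlap, and was not called (0.95 ± 0.29, adjusted p = 0.0105). It was called higher in the ovary without any 1 of NM_3295, NM_4925 and NF_3439 (1.06 to 1.20) and without both NF_3439 and NF_4060 (1.09).

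Most genes of androgen synthesis were not called different between the gonads. Of 14 genes of Leydig and theca cells, 1 was called higher in the ovary and 2 higher in the testis, so 11 were not called, and the summed level of the list ran from 10320 to 43410 CPM in the ovaries and from 20730 to 42920 CPM in the testes. STAR, which carries cholesterol into mitochondria, was at 564, 3178 and 4746 CPM in the ovaries and 1527, 2092 and 4110.2 CPM in the testes (0.36 ± 0.39, adjusted p = 0.425). CYP11A1, which cuts the cholesterol side chain, had 466.3, 2017 and 4117 CPM and 1078, 1601 and 2245 CPM (0.38 ± 0.39, adjusted p = 0.408). CYP17A1 had 7104, 19479 and 26550.0 CPM and 13714, 22591 and 30608 CPM (-0.26 ± 0.26, adjusted p = 0.403). All 3 overlapped between the groups, and the lowest value of each in the ovaries was that of NF_3439.

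Those 3 estimates leave room for a difference, since their standard errors were 0.26 to 0.39 on the log2 scale. LHCGR, the receptor of luteinizing hormone, had 58.8, 179 and 279 CPM in the ovaries and 68.2, 114 and 159 CPM in the testes (0.66 ± 0.32, adjusted p = 0.0819). NR5A1, the nuclear receptor that switches on steroid enzymes, had 407, 918 and 1519.8 CPM and 435, 610.4 and 759 CPM (0.65 ± 0.24, adjusted p = 0.0283). Without NF_3439 alone both were called higher in the ovary (0.84 for LHCGR and 0.81 for NR5A1). Without NF_3439 and NF_4060 they were again called higher in the ovary, at 0.93 ± 0.25 for LHCGR and 0.85 ± 0.19 for NR5A1, and 4 genes of the list rather than 1 were called in that direction. TSPO, a cholesterol-binding protein of the outer mitochondrial membrane, was called in the full set (0.81 ± 0.20, adjusted p = 0.0024) but no longer without these 2 ovaries, at 0.61.

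The 2 genes called higher in the testis sit at the steps that lead to testosterone. HSD3B1, which converts pregnenolone to progesterone and its relatives, had 99.5, 217 and 353 CPM in the ovaries and 409, 634 and 742 CPM in the testes (-1.46 ± 0.24, adjusted p = 9.77e-05). HSD17B3, which makes testosterone from androstenedione, had 23.2, 46.4 and 81.2 CPM and 132, 233 and 273 CPM (-2.03 ± 0.27, adjusted p = 1.81e-05). Neither overlapped. Of 13 genes that convert steroids further, 6 were called higher in the ovary and HSD17B3 alone in the testis (53.8% together, beside 55.8% of all genes).

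Among those 6, SRD5A2, a 5-alpha-reductase that makes dihydrotestosterone, had 1.62, 2.86 and 5.59 CPM in the ovaries and 0.209, 0.234 and 0.521 CPM in the testes (3.34 ± 0.39, adjusted p = 4.88e-06). HSD17B2, which inactivates estradiol and testosterone, ranged over 9.10, 35.8 and 130.2 CPM and 2.02, 4.89 and 19.2 CPM with overlap (2.88 ± 0.77, adjusted p = 0.00497), and its call was lost without NF_3439 and NF_4060 (2.24 ± 0.74) and also without any 1 of NM_0713, NM_4925, NM_6074, NM_6206, NF_0525 and NF_4060. HSD17B1 was described above. Few genes of cholesterol synthesis and uptake differed. Of 25, 4 were called higher in the ovary and 1 in the testis, and none by 4-fold. FDFT1, which makes squalene, had 233, 332 and 470.3 CPM and 158, 194 and 295 CPM (0.72 ± 0.18, adjusted p = 0.0026), and DHCR7, the enzyme of the last step of cholesterol synthesis, had 52.8, 58.6 and 64.5 CPM and 74.9, 78.4 and 84.9 CPM (-0.42 ± 0.07, adjusted p = 9.39e-05). The summed level of this list ranged from 2822 to 11580 CPM among the ovaries, with the highest in NF_3605 and the lowest in NF_3439.

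Hormone receptors and hormones were called at about the share of all genes, 55.6% beside 55.8%. Of 18 tested, 7 were called higher in the ovary and 3 (FSHR, INHA and OXTR) higher in the testis. IGF1, the growth factor that supports follicles, had 70.7, 88.3 and 166 CPM in the ovaries and 7.21, 8.37 and 11.5 CPM in the testes (3.53 ± 0.22, adjusted p = 1.56e-08). ESR2, the estrogen receptor of granulosa cells, had 76.2, 133 and 157 CPM and 25.9, 34.3 and 51.6 CPM (1.84 ± 0.19, adjusted p = 1.66e-06). TGFBR3, the coreceptor of inhibin, had 477, 712 and 807 CPM and 168, 310.4 and 475 CPM (1.06 ± 0.21, adjusted p = 0.000554). The libraries of all 3 were separate, the ovaries being higher.

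INHBA, the beta A subunit of activin and inhibin, went against INHA, with 7.37, 10.9 and 14.6 CPM in the ovaries and 1.06, 2.74 and 3.85 CPM in the testes (2.02 ± 0.28, adjusted p = 2.24e-05). ESR1, the other estrogen receptor, overlapped at 57.9, 77.8 and 91.0 CPM and 35.2, 48.8 and 94.2 CPM (0.45 ± 0.22, adjusted p = 0.093).

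Oocyte genes had the highest median of the 31 lists. All 21 tested were called, 20 higher in the ovary and 1 higher in the testis, with a median log2 difference of 5.82, and their summed level was 985.5 to 2777 CPM in the ovaries and 53.0 to 76.5 CPM in the testes. NLRP14, a maternal-effect protein stored in the oocyte, had 344, 828.8 and 1139.7 CPM in the ovaries and 5.55, 6.31 and 7.69 CPM in the testes (6.93 ± 0.33, adjusted p = 1.45e-09). PADI6, a component of the oocyte's cytoplasmic lattices, had 154, 331 and 388 CPM and 0.487, 0.908 and 1.34 CPM (8.39 ± 0.33, adjusted p = 2.6e-10). The lowest ovary in both was NF_4060, and it still exceeded every testis.

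The egg coat, or zona pellucida, is built from a few glycoproteins that growing oocytes make. ZP3 had 106, 182 and 214 CPM in the ovaries and 0.213, 0.465 and 0.608 CPM in the testes (8.63 ± 0.30, adjusted p = 1.12e-10). ZP4 had 49.2, 145 and 214 CPM and 0, 0.117 and 0.278 CPM (10.09 ± 0.51, adjusted p = 2.88e-09), the largest difference on the list. ZP2 had 66.1, 79.2 and 134 CPM and 0.907, 1.14 and 2.97 CPM (5.97 ± 0.34, adjusted p = 6.09e-09). Each of these genes was higher in every ovary than in every testis.

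The oocyte growth factors behaved less alike. BMP15 had 43.2, 49.5 and 76.0 CPM in the ovaries and 0, 0.0887 and 0.126 CPM in the testes (9.25 ± 0.32, adjusted p = 1.12e-10). GDF9, with which it acts on granulosa cells, had 47.9, 74.9 and 95.4 CPM and 16.5, 22.3 and 31.9 CPM (1.71 ± 0.20, adjusted p = 5.52e-06), so that every testis held at least 16.5 CPM of this gene. The transcription factors that start the oocyte program also differed in size, from NOBOX (21.8, 90.3 and 100.05 CPM against 0.782, 0.940 and 1.81 CPM, 6.11 ± 0.42, adjusted p = 3.79e-08) and LHX8 (7.63 ± 0.52, adjusted p = 4.02e-08) to FIGLA (3.58, 14.3 and 19.2 CPM against 0.782, 1.37 and 2.27 CPM, 3.09 ± 0.41, adjusted p = 1.78e-05). BTG4, which triggers the decay of maternal mRNA at the end of oocyte maturation, was the exception, at 0.405, 0.939 and 1.66 CPM in the ovaries and 3.25, 6.37 and 7.03 CPM in the testes (-2.5 ± 0.35, adjusted p = 2.92e-05). All these genes were free of overlap between the groups.

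Genes of early germ cells, many of which both sexes use, were split between the gonads. Of 25 genes of early germ cells and spermatogonia, 6 were called higher in the ovary and 9 higher in the testis, with a median of -0.20. Together these were 60% of the list, beside 55.8% of all genes. DDX4, the RNA helicase found in germ cells of both sexes, was at 19.5, 59.5 and 81.3 CPM in the ovaries and 66.9, 91.3 and 102 CPM in the testes with overlap (-0.69 ± 0.30, adjusted p = 0.0585). KIT, the receptor of stem cell factor, overlapped at 18.8, 30.0 and 37.8 CPM and 16.1, 21.4 and 26.3 CPM (0.46 ± 0.20, adjusted p = 0.0556). DAZL, an RNA-binding protein of the same cells, was higher in the testis, with 7.09, 28.4 and 42.9 CPM and 104, 133 and 157 CPM (-2.29 ± 0.35, adjusted p = 6.01e-05) and no overlap. The ovary of NF_4060 was again the lowest for DDX4, and NF_3605 the second lowest.

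Genes of spermatogonia and of the entry into meiosis differed most within that list. PIWIL4, a piRNA-binding protein of male germ cells, had 0.203, 0.891 and 2.33 CPM in the ovaries and 26.0, 35.7 and 45.1 CPM in the testes (-5.11 ± 0.40, adjusted p = 1.24e-07). STRA8, the retinoic acid-induced gene that starts meiosis, had 2 reads in the 6 ovaries together and 559 in the testes, a ratio of 255.6 after scaling (95% counting interval 70.4 to 2116). TDRD1, a Tudor protein of the piRNA pathway, was called higher in the ovary with overlap (31.5, 92.7 and 115 CPM against 31.1, 42.5 and 55.7 CPM, 1.01 ± 0.28, adjusted p = 0.00588). That call was lost when any 1 library other than NM_6206, NF_3605 and NF_4060 was left out, with values of 0.88 to 1.18 over all other fits.

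Meiosis genes leaned to the testis without exception among the calls. Of 30 tested, 22 were called higher in the testis and 0 in the ovary, 14 of them by 4-fold, and the median was -1.70. SYCP2, a protein of the synaptonemal complex that zips homologous chromosomes together, had 8.99, 19.2 and 32.7 CPM in the ovaries and 152, 202 and 284 CPM in the testes (-3.46 ± 0.32, adjusted p = 7.44e-07). SPATA22, which helps to repair meiotic breaks, had 5.14, 13.5 and 20.7 CPM and 76.1, 93.5 and 181 CPM (-3.02 ± 0.33, adjusted p = 2.79e-06). SYCP1, the central filament of the same complex, differed less, with 14.3, 40.6 and 49.7 CPM and 63.1, 86.7 and 109.6 CPM (-1.25 ± 0.27, adjusted p = 0.00103). No ovary reached the lowest testis in any of them.

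The spread within the list was wide. SPO11, the enzyme that cuts DNA to start recombination, had 0.174, 0.514 and 0.983 CPM in the ovaries and 15.3, 20.3 and 26.7 CPM in the testes (-5.16 ± 0.33, adjusted p = 1.81e-08). HORMAD2, which monitors unpaired chromosome axes, had 5 reads in all ovaries and 1940 in the testes (-8.23 ± 0.43, adjusted p = 3.04e-09). Other structural members overlapped instead: SYCP3 was at 16.6, 25.4 and 32.4 CPM in the ovaries and 23.4, 31.5 and 35.7 CPM in the testes (-0.33 ± 0.17, adjusted p = 0.104), and STAG3, a meiotic cohesin, at 35.5, 132 and 176 CPM and 145, 173 and 208 CPM (-0.52 ± 0.32, adjusted p = 0.158). The other meiotic cohesin named here, REC8, was higher in the testis in every library, at 1.42, 3.59 and 7.50 CPM and 47.9, 75.0 and 91.9 CPM (-4.21 ± 0.37, adjusted p = 3.63e-07).

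The piRNA pathway, which silences transposons in germ cells, followed with 12 of 22 genes called higher in the testis and 1 (TDRD1) in the ovary, and a median of -1.15. Together these were 59.1% of the list, beside 55.8% of all genes. The share of all genes called higher in the testis was 27.3%. With limma-voom 0 genes of the list were called higher in the ovary. TDRD7, a scaffold of the germ granule, had 33.0, 54.9 and 60.3 CPM in the ovaries and 319, 626 and 857 CPM in the testes (-3.49 ± 0.26, adjusted p = 8e-08). PIWIL1, the piRNA-binding protein of spermatocytes, had 11.8, 30.6 and 40.0 CPM and 102, 154 and 225 CPM (-2.42 ± 0.31, adjusted p = 1.23e-05). GTSF1, a cofactor of PIWI proteins, had the higher median in the ovary, 42.2, 160.5 and 209 CPM against 56.4, 76.1 and 83.0 CPM, with overlap, and was not called (0.98 ± 0.31, adjusted p = 0.0127), but was without both NF_3439 and NF_4060 (1.05 ± 0.19) and without NF_3605 or NF_4060 alone (1.09 and 1.17).

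Genes of later male germ cells had the lowest medians of the 31 lists. Of 21 spermatocyte genes, 18 were called higher in the testis and 1 in the ovary, with a median of -3.04. HSPA2, the chaperone of spermatocytes, had 122, 149 and 185 CPM in the ovaries and 366, 534 and 809.6 CPM in the testes (-1.81 ± 0.19, adjusted p = 1.48e-06). CCNA1, the meiotic cyclin of males, had 3.07, 5.57 and 9.89 CPM and 79.5, 174 and 256 CPM (-4.76 ± 0.37, adjusted p = 1.31e-07). The exception was OVOL1, a zinc finger factor, at 1.96, 5.05 and 6.14 CPM in the ovaries and 0.960, 1.20 and 1.88 CPM in the testes (1.82 ± 0.31, adjusted p = 0.000168). Ovaries and testes did not overlap for these 3 genes.

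Of 49 spermatid and sperm genes tested, 47 were called higher in the testis, 44 of them by 4-fold, and 0 in the ovary. Their median log2 difference was -7.34, or -7.29 with the 3 genes that had 0 ovary reads set at the bound that 3 reads allow. Their summed level ran from 1880 to 3836 CPM in the testes and from 83.6 to 139.3 CPM in the ovaries. ADAM2, a sperm surface protein of fertilization, had 0.174, 1.43 and 2.58 CPM in the ovaries and 193, 419 and 591 CPM in the testes (-8.0 ± 0.46, adjusted p = 8.2e-09), and TSSK2, a kinase of late spermatids, had 0, 0.240 and 0.447 CPM and 149.9, 205 and 319.6 CPM (-9.84 ± 0.36, adjusted p = 1.71e-10). All 6 testes were far above all 6 ovaries in both.

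The called genes of the sperm head and tail were likewise higher in the testis. TNP1, the transition protein that replaces histones in the condensing spermatid nucleus, had 0.0580, 0.0851 and 0.149 CPM in the ovaries and 30.4, 54.4 and 89.9 CPM in the testes (-9.03 ± 0.36, adjusted p = 2.78e-10). AKAP4, the main protein of the fibrous sheath of the sperm tail, had 9 reads in all ovaries and 11349 in the testes (-9.99 ± 0.41, adjusted p = 3.51e-10). SPACA1, an acrosome membrane protein, had 0 reads in the 6 ovaries and 11.2, 19.0 and 24.9 CPM in the testes, which made it at least 536.0-fold higher in the testis against a floor of 3 reads over the ovary group. The 2 list genes that were not called, TEX101 and CABYR, overlapped between the groups: TEX101, a germ cell surface glycoprotein, at 4.93, 21.9 and 26.6 CPM and 13.3, 22.4 and 30.7 CPM, and CABYR, a calcium-binding protein of the fibrous sheath, at 7.70, 20.5 and 25.4 CPM and 17.1, 25.3 and 34.4 CPM. TNP2, the second transition protein, was low even in the testes, at 4.52, 6.02 and 14.96 CPM.

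Several enzymes of energy metabolism have a second gene that male germ cells use. Of 9 such testis forms tested, 8 were called higher in the testis and 0 in the ovary (median -2.73). Of 16 somatic forms 8 were called higher in the ovary, none by 4-fold, and 0 in the testis (median 0.33). The calls made up 88.9% of the testis forms and 50% of the somatic forms, beside 55.8% of all genes. PPP3R2, the testis form of the regulatory subunit of calcineurin, had 0.174, 0.394 and 0.743 CPM in the ovaries and 98.5, 194 and 217 CPM in the testes (-8.48 ± 0.31, adjusted p = 1.48e-10). PGK2, the glycolytic phosphoglycerate kinase of sperm, had 2 reads in the ovaries and 923 in the testes, a ratio of 422.1 (95% counting interval 116.5 to 3491), beside its somatic form PGK1 at 188, 206 and 275 CPM and 215, 254 and 302 CPM (-0.27 ± 0.11, adjusted p = 0.0429). LDHC, the lactate dehydrogenase of sperm, was modest in the testes at 3.39, 4.15 and 6.51 CPM (-3.27 ± 0.26, adjusted p = 1.6e-07), and its relative LDHA was at 77.7, 117 and 126 CPM and 119, 127 and 144 CPM (-0.20 ± 0.11, adjusted p = 0.128). SLC25A6, a mitochondrial ADP/ATP carrier, was the most abundant somatic form called, with 971, 1144 and 1418 CPM in the ovaries and 304, 376 and 570.2 CPM in the testes (1.58 ± 0.14, adjusted p = 5.22e-07). Reads that mapped to more than one place were discarded, so the counts of close paralogs such as these are uncertain.

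**Figure D3:**
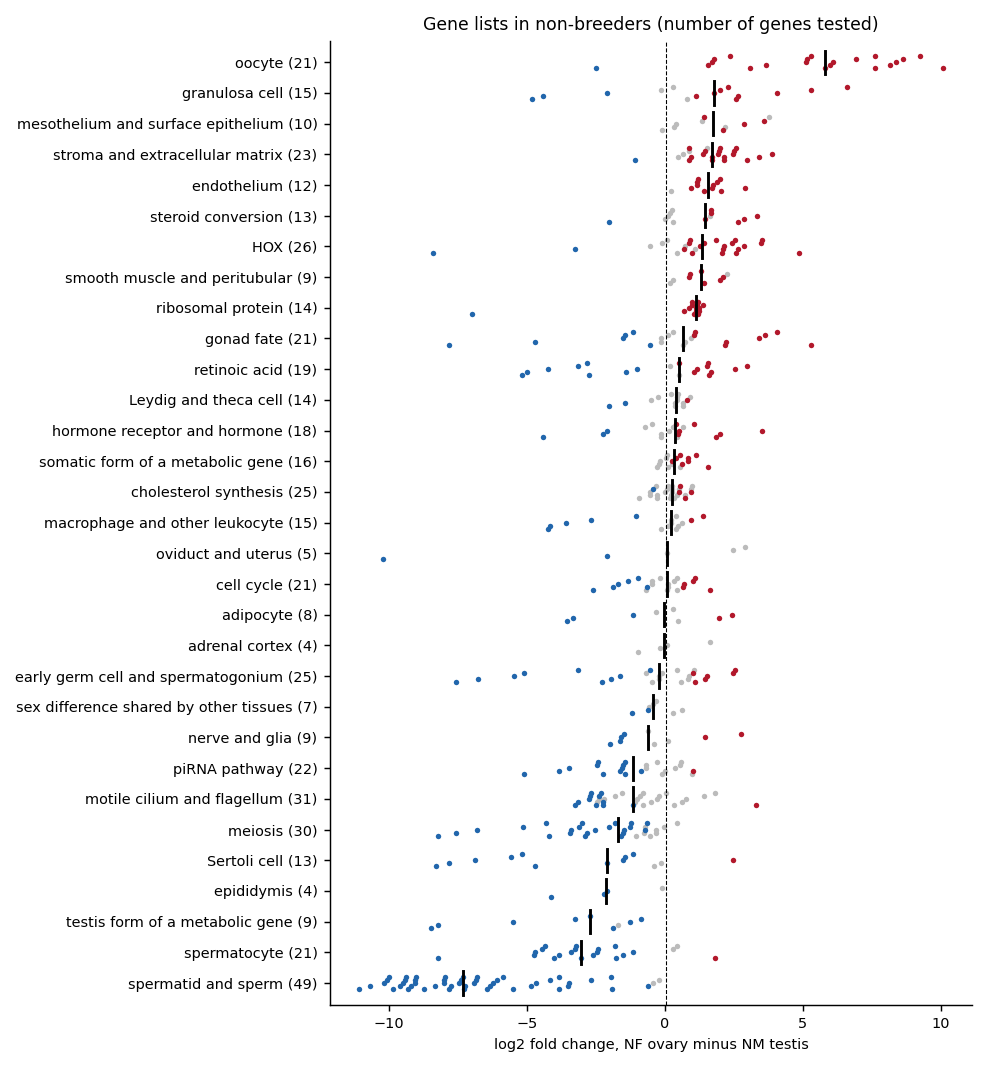
Log2 fold change (NF ovary minus NM testis) of each tested gene of 31 lists, one point per gene, with the number of genes tested beside the list's name. Red points were called higher in the ovary, blue points higher in the testis and grey points were not called, and the black bar is the list's median, from 5.82 for oocyte genes to -7.34 for spermatid and sperm genes.

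The genes of motile cilia and of the sperm flagellum, which share the same axoneme, gave an answer that depended on 2 libraries. Over all 12 libraries 11 of 31 were called higher in the testis and 1 in the ovary, with a median of -1.16. Together these were 38.7% of the list, beside 55.8% of all genes, and the share of all genes called higher in the testis was 27.3%. Without NF_3439 and NF_4060 26 were called higher in the testis and still 1 in the ovary, with a median of -2.77, while the share of all genes called higher in the testis was 29%. The summed level of the list was 1669 and 993.3 CPM in those 2 ovaries, 279.8 to 321.2 CPM in the other 4 and 995.1 to 2143 CPM in the testes. DNAH9, a dynein of the outer arms of cilia, was at 176.5 and 96.5 CPM in NF_3439 and NF_4060, at most 6.84 CPM in the other ovaries and 10.8, 14.8 and 16.9 CPM in the testes. Its log2 fold change was 1.82 ± 0.87, adjusted p = 0.0801 with these 2 ovaries and -1.24 ± 0.19 without them, and that of FOXJ1 was 0.62 ± 0.80, adjusted p = 0.507 with them and -2.12 ± 0.27 without them.

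Other axonemal genes kept their side. DNAH8, a dynein of the sperm tail, had 13.1, 15.9 and 22.2 CPM in the ovaries and 62.4, 102 and 144 CPM in the testes (-2.51 ± 0.22, adjusted p = 2.92e-07, and -2.52 without the 2 ovaries). MNS1, a filament protein of the flagellum, had 9.16, 16.1 and 63.3 CPM and 75.8, 119 and 184 CPM (-2.25 ± 0.46, adjusted p = 0.000723, and -3.22 without them). DNAH11, a dynein of nodal and airway cilia, was the gene called higher in the ovary, at 11.2, 24.7 and 71.3 CPM against 2.33, 3.09 and 3.65 CPM (3.30 ± 0.41, adjusted p = 1.01e-05, and 2.67 without them). The groups did not overlap for these 3 genes.

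Genes of the surface epithelium that covers the ovary were also high in the same libraries. Of 10 mesothelium and surface epithelium genes tested 4 were called higher in the ovary and 0 in the testis (median 1.76), and without NF_3439 and NF_4060 3 and 1 were (median 0.01). KRT8, a keratin of simple epithelia, was at 22.2, 32.8 and 114 CPM in the ovaries and 1.46, 4.82 and 7.50 CPM in the testes (3.58 ± 0.52, adjusted p = 4.15e-05, and 2.64 without them), and UPK3B, a mesothelial marker, at 16.8, 32.02 and 100.02 CPM and 2.85, 6.91 and 8.98 CPM (2.88 ± 0.48, adjusted p = 0.000137, and 2.00 without them). The highest levels of both were in the 2 ovaries, yet the other 4 also exceeded every testis. EPCAM, an adhesion molecule of epithelia, overlapped, and its call (1.41 ± 0.39, adjusted p = 0.00606) was lost without them at 0.60 ± 0.19, and also without NF_4060 alone or any 1 testis. Of 5 oviduct and uterus genes tested, 0 were called higher in the ovary and 2 higher in the testis, among them the gene named OVGP1, whose identity was not checked, and without NF_3439 and NF_4060 0 and 3 were.

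**Figure D4:**
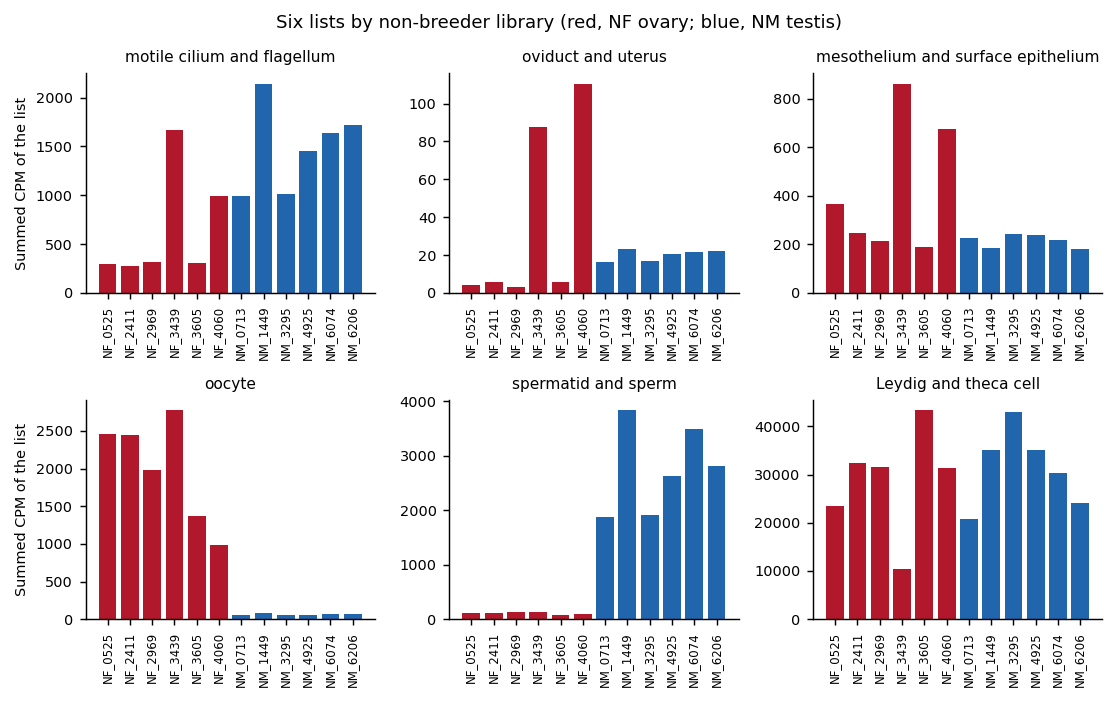
Summed CPM of 6 lists in each non-breeder library, with one bar per library, NF ovary in red and NM testis in blue, and every axis starting at 0. The ovaries of NF_3439 and NF_4060 exceed the other 4 ovaries in the cilium, oviduct and mesothelium lists. In the oocyte list NF_3439 is the highest ovary at 2777 CPM and NF_4060 the lowest at 985.5 CPM. NF_3439 has the lowest Leydig and theca cell sum at 10320 CPM.

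Most genes of connective tissue and vessels were higher in the ovary. Of 23 stroma and extracellular matrix genes, 18 were called higher in the ovary, 8 of them by 4-fold, and 1 higher in the testis (median 1.72). COL6A2, a chain of the fine-fibre collagen VI, had 607, 627 and 995 CPM in the ovaries and 136, 156 and 189.9 CPM in the testes (2.15 ± 0.14, adjusted p = 1.6e-08), and COL1A1, the main chain of fibrillar collagen, had 305, 506 and 627 CPM and 87.0, 99.4 and 167 CPM (2.16 ± 0.20, adjusted p = 6.65e-07). The exception was DCN, the proteoglycan decorin, with 61.8, 142 and 193 CPM against 141, 314 and 367 CPM and some overlap (-1.10 ± 0.27, adjusted p = 0.00251). Of 12 endothelial genes, 11 were called higher in the ovary and 0 in the testis (median 1.57).

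Among these, ENG, a coreceptor of endothelial cells, had 159.7, 187 and 211 CPM in the ovaries and 30.8, 46.8 and 51.5 CPM in the testes (2.04 ± 0.12, adjusted p = 8.37e-09), and TEK, the angiopoietin receptor, had 21.9, 54.3 and 69.9 CPM and 5.29, 6.51 and 8.64 CPM (2.91 ± 0.29, adjusted p = 1.09e-06). Smooth muscle and peritubular genes were called higher in the ovary for 6 of 9 and in the testis for 0, led by TAGLN, an actin-binding protein of smooth muscle, at 272, 459 and 783 CPM and 80.3, 124 and 163 CPM (1.99 ± 0.25, adjusted p = 8.82e-06). The groups were separate for ENG, TEK and TAGLN. Leukocyte genes showed no common direction, with 2 of 15 called higher in the ovary and 5 in the testis (46.7% together, beside 55.8% of all genes). Of the latter, PTPRC, the pan-leukocyte surface phosphatase CD45, had 2.27, 5.38 and 5.89 CPM in the ovaries and 25.0, 26.7 and 44.3 CPM in the testes (-2.68 ± 0.25, adjusted p = 5.43e-07). The macrophage genes also differed in direction. CD163, a scavenger receptor, had 0, 0.149 and 0.522 CPM in the ovaries and 2.83, 4.12 and 5.65 CPM in the testes (-4.25 ± 0.48, adjusted p = 3.4e-06), and TYROBP, a signalling adaptor, had 4.42, 6.40 and 8.11 CPM and 9.25, 13.7 and 17.5 CPM (-1.05 ± 0.20, adjusted p = 0.000371). CD14, a receptor for bacterial lipopolysaccharide, was called higher in the ovary with a log2 fold change of 1.37, as was AIF1 with 0.95, while CD68, CSF1R, MRC1, C1QA, C1QB and C1QC were not called.

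Genes of retinoic acid, the vitamin A product that induces meiosis, were called in both directions. Of 19 genes, 9 were called higher in the ovary and 8 in the testis. ALDH1A1, which makes retinoic acid, had 130.2, 190.2 and 284 CPM in the ovaries and 45.8, 62.9 and 107 CPM in the testes (1.57 ± 0.23, adjusted p = 3.53e-05), while ALDH1A3, of the same family, had 29.9, 40.9 and 112 CPM and 117, 139 and 253 CPM (-1.43 ± 0.34, adjusted p = 0.00231, and -2.09 without NF_3439 and NF_4060). CYP26B1, which degrades it, had 0.491, 1.00 and 1.91 CPM and 11.5, 18.9 and 39.7 CPM (-4.23 ± 0.37, adjusted p = 3.06e-07). RBP4, the secreted carrier of the precursor retinol, had 0.249, 1.25 and 4.73 CPM in the ovaries and 48.2, 75.6 and 117 CPM in the testes (-5.20 ± 0.51, adjusted p = 1.3e-06, and -6.40 without those 2 ovaries). No library overlapped for any of them, although the ovaries of NF_3439 and NF_4060 came closest to the testes for ALDH1A3, at 112.3 and 86.3 CPM.

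HOX genes, which give cells their position along the body axis, were called higher in the ovary for 18 of 26 and in the testis for 2 (median 1.35). HOXD1 had 5.88, 18.3 and 22.1 CPM in the ovaries and 0.379, 0.543 and 0.696 CPM in the testes (4.85 ± 0.38, adjusted p = 1.32e-07), and HOXC6 had 19.3, 26.2 and 41.5 CPM and 3.50, 5.43 and 14 CPM (2.13 ± 0.31, adjusted p = 4.38e-05). The 2 that went the other way were the posterior genes HOXB13 and HOXD13. HOXB13 had 0 reads in the ovaries and 2.33, 2.68 and 3.91 CPM in the testes, at least 79.0-fold higher there against the floor of 3 reads.

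Ribosomal protein genes moved as a block. Of 14, 13 were called higher in the ovary, none of them by 4-fold, with a median of 1.13 that far exceeded the shift between scalings. RPLP0, a protein of the ribosomal stalk, had 1815, 2298 and 2579 CPM in the ovaries and 648, 962 and 1356 CPM in the testes (1.21 ± 0.16, adjusted p = 1.39e-05), and RPS6, of the small subunit, had 1686, 1880.3 and 1987 CPM and 799, 833 and 1009 CPM (1.11 ± 0.09, adjusted p = 1.65e-07). The gene called higher in the testis was RPL10L, a retrogene of RPL10 that male germ cells use, with 0, 0.0995 and 0.135 CPM in the ovaries and 9.03, 13.03 and 16.5 CPM in the testes (-6.98 ± 0.32, adjusted p = 1.11e-09). In all 14 genes ovaries and testes were separate.

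The remaining lists had no prevailing side. Cell cycle genes were called higher in the ovary for 5 of 21 and in the testis for 6 (median 0.07). Together these were 52.4% of the list, beside 55.8% of all genes. TOP2A, a topoisomerase of dividing cells, was at 25.5, 36.3 and 60.5 CPM in the ovaries and 151, 261 and 342 CPM in the testes (-2.61 ± 0.28, adjusted p = 2.32e-06). MCM7, a replication helicase subunit, was at 141, 156 and 201 CPM and 91.5, 107 and 116 CPM (0.64 ± 0.11, adjusted p = 0.00013). Adipocyte genes were called in the ovary for 2 of 8 and in the testis for 3, nerve and glia genes for 2 and 4 of 9, adrenal cortex genes for 0 and 0 of 4, and epididymis genes for 0 and 3 of 4. Where a list had 0 calls in one direction by edgeR, its count in that direction at an unadjusted p under 0.05 was also 0, apart from 1 somatic form of a metabolic gene in the testis, 1 oviduct and uterus gene in the ovary, 1 adrenal cortex gene in each direction and 2 genes in the ovary of the list of sex differences shared with other tissues. In those directions DESeq2 made 1 call each in the somatic forms and the shared sex differences and 0 in the other lists, and limma-voom made 0. The epididymis list summed to 7.71 to 17.7 CPM in the testes. Of 7 genes listed for a difference between the sexes outside the gonads, 0 were called higher in the ovary and 2 in the testis: KIF4A, a mitotic kinesin encoded on the X chromosome of other mammals, at 16.3, 28.8 and 36.9 CPM and 48.1, 65.2 and 75.3 CPM (-1.20 ± 0.19, adjusted p = 7.21e-05), and TRAPPC2, a trafficking protein, at 3.84, 4.91 and 5.89 CPM and 6.56, 7.26 and 8.61 CPM (-0.62 ± 0.16, adjusted p = 0.00315), whose call was lost without NF_3439 and NF_4060 at -0.56.

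Outside the lists, the genes of largest difference in the ovary were led by HELT, a basic helix-loop-helix factor, with 43.0, 142 and 162 CPM in the ovaries and 0.0538, 0.0881 and 0.261 CPM in the testes (10.02 ± 0.50, adjusted p = 2.23e-09). HTR1A, a serotonin receptor, had 1410 reads in the ovaries and 2 in the testes, a ratio of 770.8 (95% counting interval 213.0 to 6371). TCL1A, a coactivator of the kinase AKT, had 235, 687 and 833 CPM and 1.92, 3.11 and 3.65 CPM (7.70 ± 0.40, adjusted p = 3.3e-09). TAC3, the precursor of the neuropeptide neurokinin B, had 292, 574 and 1156 CPM and 2.04, 2.70 and 5.12 CPM (7.55 ± 0.41, adjusted p = 5.19e-09), with the highest value in NF_2969. Ovaries and testes were separate in all of them.

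ANKS4B, NR2E3 and C5orf20 completed this set with log2 fold changes of 8.72, 7.99 and 7.26, together with SYT8, a synaptotagmin. SYT8 had 0 reads in the testes and was at 13.9 and 15.9 CPM in NF_3439 and NF_4060 but at no more than 2.08 CPM in the other 4 ovaries, which made it at least 195.7-fold higher over the group and at least 43.0-fold higher without those 2 libraries. Toward the testis, TRIM42, a ubiquitin ligase-like protein, had 1 read in the ovaries and 8540 in the testes, where it measured 53.1, 92.7 and 132 CPM (ratio 7811, 95% counting interval 1402 to 308550). TMCO2, ADAM29, LRRC52 and C16orf78 had 0 ovary reads and were at least 790.8-, 546.6-, 461.0- and 308.5-fold higher in the testis, respectively. LRRC52 is a subunit of the potassium channel of sperm. ACTRT1 and C1orf146 had 1 read each in the ovaries against 2961 and 2305 in the testes, and C12orf50 had 5 against 8273. The log2 fold change of C1orf146 was -10.21, and -11.46 without NF_3439 and NF_4060.

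The most abundant genes with a 4-fold difference were of other kinds. In the ovary they were CYP4B1, a cytochrome P450 (1562, 2104 and 3177 CPM against 95.3, 252 and 635 CPM, 2.78 ± 0.37, adjusted p = 1.71e-05), and PLAU, the urokinase that activates plasmin (1144, 1391 and 1742 CPM against 146.2, 228 and 333 CPM, 2.72 ± 0.20, adjusted p = 5.37e-08). They were followed by NREP, RGS5, THBS1, TPM1 and PEG10, with log2 fold changes of 2.86, 4.47, 4.83, 3.12 and 3.86. RGS5 marks pericytes, THBS1 encodes the matrix protein thrombospondin, TPM1 a tropomyosin and PEG10 an imprinted gene derived from a retrotransposon. CST3, the secreted protease inhibitor cystatin C, met the rule only through NF_3439 and NF_4060, at 2093 and 2398 CPM against 247.7 to 276.5 CPM in the other ovaries and 191, 205 and 269 CPM in the testes. Its log2 fold change of 2.10 ± 0.63, adjusted p = 0.00943 became 0.28 ± 0.12 without them and was no longer called, as was also the case without either of them or without any 1 testis.

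In the testis, CLU, the secreted chaperone clusterin made by Sertoli cells, led with 87.3, 101 and 212 CPM in the ovaries and 2798, 3291 and 4502 CPM in the testes (-4.69 ± 0.29, adjusted p = 1.11e-08). GSTM3, a glutathione transferase, had 234, 328 and 344 CPM and 1306, 1544 and 1989.7 CPM (-2.36 ± 0.14, adjusted p = 7.76e-09). VSIG1, a membrane protein of the immunoglobulin family, had 4.27, 7.12 and 8.57 CPM and 473, 524.9 and 734 CPM (-6.34 ± 0.22, adjusted p = 1.12e-10), and FATE1, a protein between mitochondria and endoplasmic reticulum in testis and adrenal, had 3.58, 4.42 and 5.80 CPM and 445, 477 and 830.2 CPM (-6.90 ± 0.23, adjusted p = 1.1e-10). The groups were far apart in all 4. CRAT, ODF2, SERPINA5 and USP2 had log2 fold changes of -2.04, -3.20, -4.00 and -2.48.

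The same animals gave libraries of 8 other tissues, which show how far these genes are made outside the gonads. Of all 14470 genes tested, 499 averaged below 1 CPM in each of the 8 tissues. Of the 622 genes higher in the ovary by 4-fold, 48 (7.72%) did, and of the 1366 higher in the testis 349 (25.5%) did. The ovary held the highest level of all tissues for 229 of the first (36.8%) and the testis for 820 of the second (60.0%). On the scale of these 108 libraries, 13 of the 21 oocyte genes tested averaged below 1 CPM in each of the 8 tissues. Of these, NLRP14 averaged 622.6 CPM in the ovary and at most 0.0624 CPM elsewhere (pituitary), and ZP3 133.6 CPM and at most 0.138 CPM (skin). HELT and NR2E3 had no read in any other tissue. Among testis genes, SERPINA5 averaged 470.1 CPM in the testis and at most 0.274 CPM elsewhere (heart), whereas CLU averaged 2747 CPM in the testis and 2878 CPM in the thyroid.

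Breeders showed whether the same differences held in other animals. In 5 BF ovaries and 6 BM testes 43.3% of 14292 genes were called (6186) and 11.6% with a 4-fold difference (1653). Of the 622 genes higher in the ovary of non-breeders by 4-fold, 617 were tested in breeders, where 613 had the same sign and 565 were called in the same direction. Of the 1366 higher in the testis, 1169 were tested, 1162 had the same sign and 1022 were called in the same direction. Genes with too few reads to be tested in breeders did not enter these counts. Over the genes tested in both, the median log2 fold change of the first set was 2.78 in non-breeders and 2.65 in breeders. That of the second set was -3.44 and -2.98. The sets were chosen on the non-breeder values, so a smaller size in breeders is not a result. Called the other way in breeders were 3 of these genes: GLDN, EGR4 and F7, a coagulation factor.

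Whether the ovary minus testis difference itself differed between non-breeders and breeders was tested by the interaction term in a fit of all 23 libraries. It was called for 92 of 14911 genes (0.617%), 48 higher and 44 lower in non-breeders, and 3604 passed an unadjusted p of 0.05. Of the 92, 16 were among the 4-fold genes of the non-breeders, which made up 13.7% of the genes tested there. The count moved with single libraries: it was 34 without BF_4772, 192 without NF_3439, 194 without BF_6841 and 199 without BM_5982, and it was 301 without NF_3439 and NF_4060.

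The ovary minus testis difference of INHA was not the same in both statuses. Its level was 25.4, 32.8 and 40.3 CPM in NF ovary and 457, 1229.5 and 1990.3 CPM in BF ovary, with BM testis at 440.4, 665 and 843 CPM, so that the log2 fold change of -4.40 in non-breeders stood beside 0.83 (adjusted p = 0.0318) in breeders (interaction -5.27 ± 0.38, adjusted p = 2.87e-08). The breeder difference was not called, and the breeder groups overlapped. GLDN, which encodes gliomedin, an extracellular adhesion protein, averaged 0.292 CPM in NF ovary, 6.14 CPM in NM testis, 72.7 CPM in BF ovary and 2.85 CPM in BM testis (interaction -9.0 ± 0.80, adjusted p = 9.9e-07). EGR4 and EGR3, transcription factors that respond rapidly to stimulation, had interactions of -5.43 ± 0.91, adjusted p = 0.0028 and -7.06 ± 1.15, adjusted p = 0.00239. The NF ovaries of all 4 genes lay below every NM testis, whereas the BF means exceeded the BM means. The BF ovaries were uneven for EGR3 (1.35 to 155.5 CPM) and EGR4 (2.34 to 382.5 CPM), with BF_6841 the lowest for both. Its EGR3 level lay within the range of the BM testes (0.537 to 3.01 CPM), and its EGR4 level below all of them (8.58 to 26.8 CPM).

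INHBA and SERPINE2, both of the granulosa list, were higher in the ovary in either status but by less in non-breeders (interactions -3.06 ± 0.57, adjusted p = 0.00613 and -2.94 ± 0.32, adjusted p = 2.26e-05). CBLN1, a secreted synaptic organizer, was higher in the testis in both, by more in non-breeders (interaction -3.69 ± 0.50, adjusted p = 0.00051), and CA3, a carbonic anhydrase, had -1.28 in non-breeders beside 2.01 (adjusted p = 0.00129) in breeders (interaction -3.33 ± 0.53, adjusted p = 0.00215). Toward the other side, HSD17B3 averaged 51.6 CPM in NF ovary, 212.2 CPM in NM testis, 6.45 CPM in BF ovary and 217.2 CPM in BM testis (interaction 3.01 ± 0.52, adjusted p = 0.00357). SCARB1, the receptor that takes up cholesterol from lipoproteins, was at 154, 642 and 1694 CPM in NF ovary and 275, 557 and 640.2 CPM in NM testis with overlap, beside means of 164.3 and 1152 CPM in breeders (interaction 3.30 ± 0.60, adjusted p = 0.00559). QPRT, an enzyme of NAD synthesis, was at 13.6 and 56.7 CPM on average in NF ovary and NM testis and at 1.90 and 113.2 CPM in breeders (interaction 3.82 ± 0.53, adjusted p = 0.000535).

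CFD (complement factor D), SOD3 (extracellular superoxide dismutase), LRG1 (a secreted leucine-rich glycoprotein) and CPN2 (a subunit of carboxypeptidase N) overlapped between NF ovary and NM testis and were lower in BF ovary than in BM testis, with interactions of 3.43, 3.06, 3.44 and 5.28 on the log2 scale. CPN2 was at 72.0 CPM in the ovary of NF_3605 and at most 20.8 CPM in the other NF ovaries. The calls of LRG1, SCARB1, CPN2 and INHBA were each lost without any 1 of 11 or more libraries. STAR, CYP17A1 and CYP11A1, which were not called in non-breeders, had log2 fold changes of -3.05 (adjusted p = 0.00153), -2.55 (adjusted p = 0.00105) and -1.57 (adjusted p = 0.0118) in breeders, but their interactions missed the threshold (3.40 ± 0.76, adjusted p = 0.0156, 2.27 ± 0.57, adjusted p = 0.0267 and 1.94 ± 0.65, adjusted p = 0.0748).

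**Figure D5:**
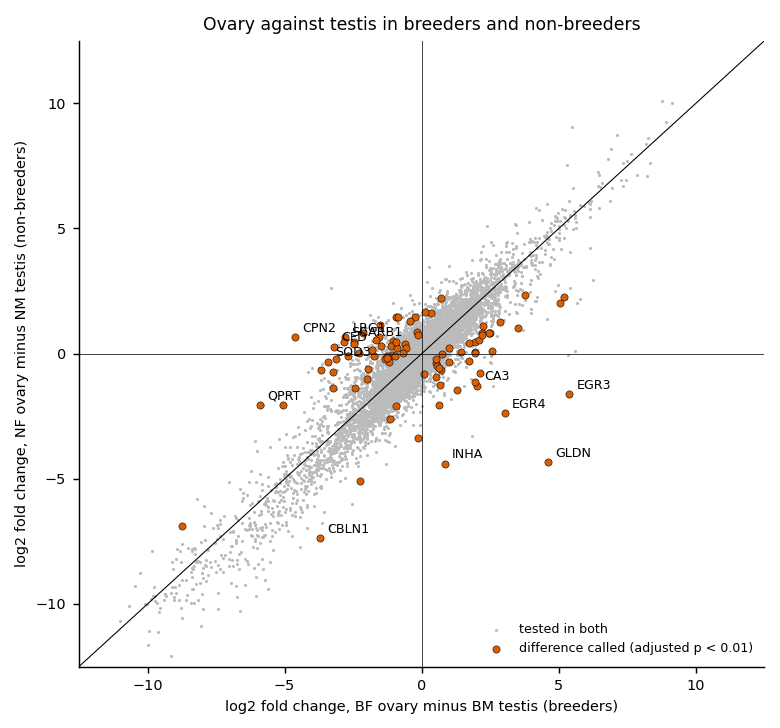
Log2 fold change of ovary minus testis in breeders (x axis, 5 BF and 6 BM) and non-breeders (y axis, 6 NF and 6 NM) for each gene tested in both. Orange points mark genes whose difference between the statuses was called, named for the 6 largest in each direction, and the diagonal marks equal differences. GLDN, EGR3, EGR4 and INHA lie below 0 in non-breeders and above 0 in breeders.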

How the data were processed

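Polyadenylated RNA of whole gonads was sequenced by the authors from an unstranded library kit, so reads of a gene and of an antisense or overlapping partner cannot be told apart. The deposited values are raw counts per gene, one column per library: the authors used STAR 2.4.1d to place reads on the published genome of the species, dropped those with more than one position and counted the rest with HTSeq on reference transcripts aligned to that genome. Gene symbols are those of the table. Columns of the 12 non-breeder gonads (10369535 to 18167855 reads) and of 11 breeder gonads (11486727 to 19675141 reads) were matched to samples by name. The BF_1816 ovary was left out, as in the study.

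Counts were tested in R 4.3.3 with edgeR 4.0.16 (filterByExpr, TMM factors, robust quasi-likelihood F-test), each comparison on its own libraries and the interaction on all 23, with Benjamini-Hochberg adjustment over all genes tested. Of 16339 genes, 1869 were too low to be tested in non-breeders. Called means an adjusted p below 0.01, and 4-fold an absolute log2 fold change above 2 besides. Levels are CPM (counts scaled to library totals) with TMM factors over the 23 gonad libraries; levels in other tissues use factors over 108 libraries of the non-breeders. Correlations and components used log2 of CPM plus 1. Each library is a different animal. The lowest ratio of the chi-square statistic to its degrees of freedom between libraries of a group was 13.23, so no library was counted as a repeat. A gene with 0 reads in a group was set at 3 reads over that group for its bound, and intervals are 95% exact binomial intervals (Clopper-Pearson), which cover counting error only.

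The comparison, the 31 gene lists (603 genes, 536 in the table, 499 tested) and the rule for named genes were chosen with earlier results of these data known. The text names members of the lists, first the called members with the highest mean level and then defining genes, and outside the lists, among genes with a called 4-fold difference and a mean of at least 5 CPM in the higher group, the 8 of largest difference and the 8 most abundant in each direction. For the interaction it names up to 6 genes in each direction that averaged 5 CPM or more in any group. F7 and further list members were named after their values were seen. DESeq2 1.42.0, limma 3.58.1 (voom), other scalings and filters, a fit of all groups, a test against a 2-fold change and leaving out libraries were tried as alternatives. Leaving out NF_3439 and NF_4060 together was chosen after seeing the data. Some list members that enter the counts are not reported here by name. The scripts were tested on simulated counts.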

Additional observations from a re-analysis of the deposited data

Results flagged for a closer look

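In each group of 6 libraries the highest or lowest value was set against the gap that Dixon's test allows at the 95% level. Of 360 values of genes and list sums, 32 (8.89%) held a library that stood clear of the rest. The same 12 libraries recur in these values and some lists share genes, so no chance rate can be set beside this share. Most belonged to 2 testes. NM_0713 was the highest testis for SOX9 (187.7 CPM), WT1 (201.5), GATM (280.4), DEFB119 (85.47), SERPINA5 (924.4), ALDH1A3 (253.3) and CBLN1 (132.8), and for the summed levels of the Sertoli cell (2355), granulosa cell (2269) and gonad fate (2061) lists. It was the lowest testis for DCN (141.5) and ENG (30.83). It also had the fewest reads of the 12 libraries.

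NM_3295 was the highest testis for FOXL2 (8.273 CPM), FST (6.364), WNT4 (7.213), NREP (417), HOXC6 (14), SLC25A6 (570.2), SOD3 (116.1) and the stroma sum (6291). All of these genes but SOD3 were called higher in the ovary than in the testis, and its FOXL2 level was below that of every ovary. NM_1449 was the highest testis for TNP2 (14.96) and CYP26B1 (39.71). In the ovaries, NF_4060 was the highest for COL6A2 (995.3), THBS1 (1366) and RUNX1 (8.987), and NF_3439 for DNAH11 (71.27) and ODF2 (103.1). NF_3605 was the highest for CPN2 (71.95), PGK1 (275.2) and the cholesterol synthesis sum (11580), and NF_2969 for TAC3 (1156) and the epididymis sum (5.396). What set these libraries apart was not tested.

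For 16 named genes the ovary minus testis difference itself differed between non-breeders and breeders by the interaction test of edgeR at an adjusted p below 0.01. On the log2 scale, non-breeders minus breeders, it was negative for GLDN (-9.0), EGR3 (-7.06), EGR4 (-5.43), INHA (-5.27), CBLN1 (-3.69), CA3 (-3.33), INHBA (-3.06) and SERPINE2 (-2.94). It was positive for CPN2 (5.28), QPRT (3.82), LRG1 (3.44), CFD (3.43), SCARB1 (3.30), SOD3 (3.06), HSD17B3 (3.01) and FATE1 (1.80).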

How the results depend on the processing

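No paired analysis was possible because ovary and testis come from different animals, so that no animal or number links the groups. The calls in non-breeders (8075) ranged from 7839 to 8701 over the other settings and from 7431 to 8142 when each of the 12 libraries was left out, and those in breeders (6186) from 5334, with the BF_1816 ovary, to 7111, with DESeq2. The test against a 2-fold change called 2514 genes, 900 higher in ovary and 1614 in testis, beside 1988 (622 and 1366) by estimate. Of 1424 values of the 178 named genes under these settings 1394 kept their direction and call, 16 lost the call and 10 gained it. Turned in sign were DNAH9 (-1.24) and FOXJ1 (-2.12) without the ovaries of NF_3439 and NF_4060, and FOXJ1 (-0.66) and CPN2 (-0.00) with limma-voom. Of 2136 values with 1 library left out, 2086 kept direction and call, and 4 genes turned in sign, namely AMH (-0.22 to 0.11, turned without NM_0713), WT1 (-0.25 to 0.10, NM_0713), FOXJ1 (-0.26 to 0.86, NF_3439) and CPN2 (-0.17 to 0.89, NF_3605). The cause was not tested.

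The count for the difference between non-breeders and breeders (92 genes, 48 higher and 44 lower in non-breeders) moved most. DESeq2 called 589 (360 higher, 229 lower), limma-voom 49 (17 higher) and the fit without NF_3439 and NF_4060 301 (174 higher, 127 lower). All 92 were among those of DESeq2, 45 among those of voom and 90 among those of the reduced fit. With each of the 23 libraries left out it ranged from 34 to 199 (13 to 131 higher, 21 to 94 lower). It fell by over 1.5 times without any 1 of NM_0713, NM_1449, NM_6074, NM_6206, NF_2411, NF_2969, NF_3605, BF_1090, BF_4772, BM_1215, BM_3274 and BM_6656, and rose by over 1.5 times without any 1 of NF_3439, BF_6841, BM_1400 and BM_5982. Of the 16 named interactions, 9 lost the call in at least 1 of the other settings, and INHBA, CPN2, LRG1 and SCARB1 lost it without single libraries. Genes with few reads in a group carry the widest intervals, and 1869 low genes could not be tested.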

Other observations

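The lists of germ cell genes had these ranges in breeders and non-breeders, and the difference in spread was not tested. The summed level of the spermatid and sperm list ran from 371.9 to 2365 CPM over the 6 BM testes, beside 1880 to 3836 CPM over the 6 NM testes, and that of the meiosis list from 461.7 to 1446 CPM beside 1183 to 1901 CPM. The oocyte list summed to 1199 to 1874 CPM over the 5 BF ovaries and to 985.5 to 2777 CPM over the 6 NF ovaries. In BF_6841, 1 of the 5 BF ovaries, the oviduct and uterus list summed to 33.2 CPM, above all 6 NM testes and the 4 lower NF ovaries. In BF_6382 that list summed to 16.4 CPM. The motile cilium and flagellum list summed to 845.2 CPM in BF_6841, 586 CPM in BF_6382 and 254.5 to 303.3 CPM in the remaining BF ovaries. FOXJ1 was at 33 CPM in BF_6841, 19.9 CPM in BF_6382 and at most 3.69 CPM in the remaining BF ovaries. The biological coefficient of variation fitted within a group was 32.6% for NF ovary, 19.1% for NM testis, 22.8% for BF ovary and 30.9% for BM testis.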
